A study of Rattus norvegicus with 6 samples.

Results

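The genes that Schwann cells use to build and run the myelin sheath were followed in the vestibular epithelium of rats exposed to iminodipropionitrile (IDPN), a nitrile that damages hair cells (HCs), the sensory receptors of the ear. These genes were Mbp, Pmp22, Mag, Prx, Cnp, Mal, Egr2 and Sox10, taken as a list of names, which was set with earlier results of these data known. All 8 were found among the 32883 genes of the count table, and all 8 were among the 14352 genes with enough counts to be tested. The samples came from male Long-Evans rats that were 8 to 9 weeks old on reception. The control group (Control, n = 3) drank plain water, and the treated group (IDPN-4wk, n = 3) drank water with 20 mM IDPN for 4 weeks. Each library was made from 1 rat, from which 2 utricles and 6 cristae were pooled. The labels name no transgene or deletion. The sensory patches were dissected as tissue and not sorted, so a library may also hold RNA of the nerve fibres, glia and stroma beneath the HCs.

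Schwann cells wrap the axons of peripheral nerves, the vestibular nerve included, and myelin speeds conduction along these axons. Compact myelin is a stack of membranes held together by adhesion proteins and by Mbp, while noncompacted regions and contacts with the axon and the basal lamina use other proteins. The programme is run by the transcription factor Sox10, which marks the lineage from the neural crest onward, and by Egr2 (Krox20), which is needed for Schwann cells to begin and keep myelination. In the ear, Sox10 is also made by supporting cells and other cells of the otic epithelium, so its RNA is not specific to glia. Mbp, Mag, Cnp and Mal are made in oligodendrocytes of the central nervous system too, and Pmp22 and Mal also in some epithelia.

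Because several of the genes below moved together, the sequence before the start of 4 of them is shown, for Pmp22, Prx and Mag, whose levels after exposure were from 66.6% to 68.4% of control, and for Cnp, whose level was 87.7% of control. Each is the 250 bases before the annotated start in RefSeq on the build GRCr8, 5′ to 3′ on the strand of the gene. Capitals mark matches to the core letters bound by SOX factors, searched as ACAAAG and as ACAAT on both strands. The windows are chr10:48294682-48294931 on the plus strand for Pmp22, chr1:91914171-91914420 on the plus strand for Prx, chr1:95291045-95291294 on the minus strand for Mag and chr10:86011254-86011503 on the plus strand for Cnp.
Pmp22: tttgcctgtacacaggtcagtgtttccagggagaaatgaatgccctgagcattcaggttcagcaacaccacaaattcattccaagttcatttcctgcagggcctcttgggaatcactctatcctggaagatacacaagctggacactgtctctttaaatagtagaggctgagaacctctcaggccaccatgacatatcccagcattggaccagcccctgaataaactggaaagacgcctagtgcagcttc
Prx: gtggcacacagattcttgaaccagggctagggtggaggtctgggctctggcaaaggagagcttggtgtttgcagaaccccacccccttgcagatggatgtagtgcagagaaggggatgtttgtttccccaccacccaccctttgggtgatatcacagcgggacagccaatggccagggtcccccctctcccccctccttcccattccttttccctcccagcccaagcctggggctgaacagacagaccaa
Mag: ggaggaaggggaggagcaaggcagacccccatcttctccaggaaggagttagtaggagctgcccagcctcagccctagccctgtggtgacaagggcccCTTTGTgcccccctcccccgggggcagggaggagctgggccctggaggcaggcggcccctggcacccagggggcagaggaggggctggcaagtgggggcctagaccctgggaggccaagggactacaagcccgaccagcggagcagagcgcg
Cnp: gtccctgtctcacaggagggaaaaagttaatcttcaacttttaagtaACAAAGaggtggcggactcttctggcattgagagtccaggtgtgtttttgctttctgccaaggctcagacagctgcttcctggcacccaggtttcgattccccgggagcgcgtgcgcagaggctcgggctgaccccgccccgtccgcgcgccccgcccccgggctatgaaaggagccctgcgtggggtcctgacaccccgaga
Mag held 1 match to ACAAAG, read as its reverse complement and starting 152 bases before the gene start, and Cnp held 1, starting 203 bases before it. Pmp22 and Prx held neither form. Among all 33469 promoters of the table, 16.3% held ACAAAG and 30.0% held ACAAT, so a match in this window is common. The site read by EGR factors, searched as GCGNGGGCG on both strands, was held by 4.29% of all promoters and by none of the 7 genes with an entry. Mal and Egr2 held no SOX match either, and Sox10 had no entry. Mbp, whose 2 windows are not shown, held both forms before 1 of its annotated starts and neither before the other. A match to letters is not a binding site, and sites outside these windows were not searched.

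Depth was from 13358678 to 18561991 counts per library, and the 8 genes took from 0.345% to 0.584% of them. Single genes had from 517 to 34460 counts in a library, so that counting error alone was at most 4.40% of a value. Levels are given in CPM, the count of a gene scaled to a common library total, with library totals adjusted by TMM (trimmed mean of M values). A gene was called when its Benjamini-Hochberg adjusted p (Padj) in the quasi-likelihood test of edgeR, adjusted over all genes tested, was under 0.05 and its fold change was over 1.5. Across the genes tested the median log2 fold change was 0.02. The TMM factors separated the groups, from 0.955 to 0.968 in Control and from 1.03 to 1.05 in IDPN-4wk. With library size alone that median became 0.13. The animal codes in the sample titles put the 3 IDPN-4wk rats under one prefix and the controls under 2 others. What the prefix marks is not given, and it cannot be told apart from treatment.

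Of the 8 genes, 6 had a lower mean level in IDPN-4wk and 2 had a higher one. Only Pmp22 was called lower (6.62% of all genes tested were), a call that 2 other scalings ended, and none was called higher (3.09% of all genes). By Padj alone 5 were lower, Mbp, Pmp22, Mag, Prx and Mal, where 11.5% of all genes were, and none was higher, where 7.89% were. The groups did not overlap in 6 genes with IDPN-4wk below (19.3% of all genes) and in 1 with IDPN-4wk above (18.5% of all genes). The median log2 fold change of the 8 was -0.47. Their summed level was 5575 ± 472 CPM (SD, n = 3) in Control against 4083 ± 726 CPM (SD, n = 3) in IDPN-4wk, or 73.2% of control. Schwann cell RNA was present in every library, with Prx, which is largely made by Schwann cells, at 375 CPM or more. Fewer Schwann cells, less RNA per Schwann cell, a change in other cells and a difference in dissection cannot be told apart in tissue libraries.

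**Figure D1:**
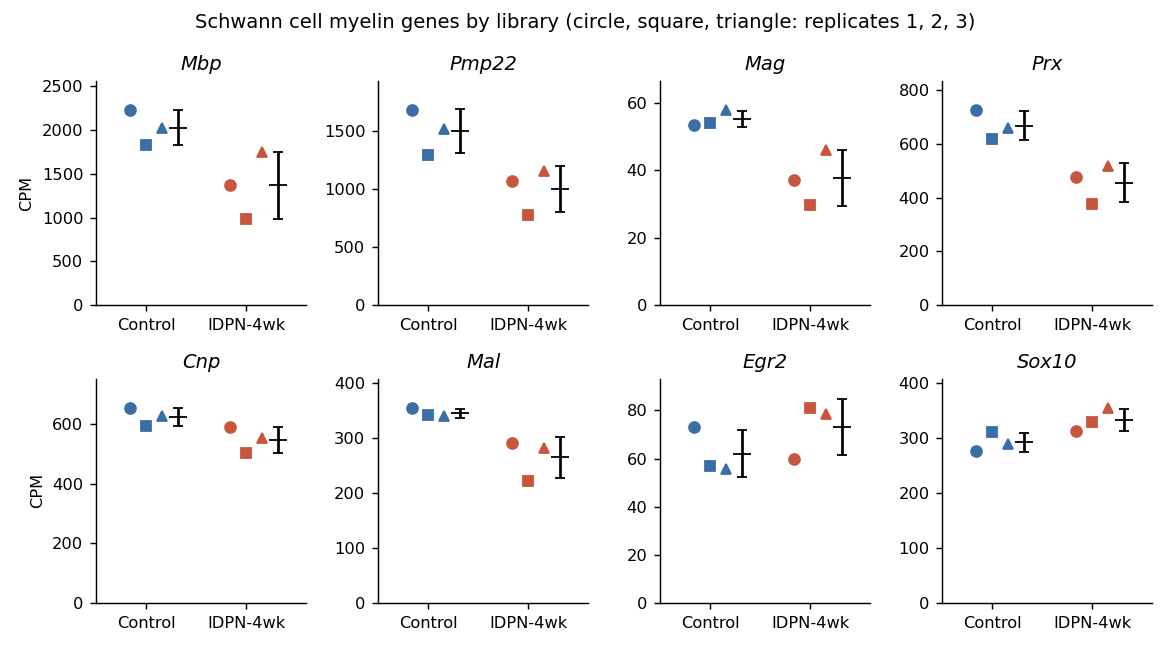
Levels of the 8 Schwann cell myelin genes in CPM (linear axes from 0) in the 3 Control and 3 IDPN-4wk libraries; points are libraries, with shapes for replicates 1 to 3, and bars give the mean ± SD. The IDPN-4wk libraries lie below all controls for Mbp, Pmp22, Mag, Prx, Cnp and Mal, above them for Sox10, and overlap them for Egr2.

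Mbp encodes myelin basic protein, which seals the cytoplasmic faces of the compact myelin membrane. It had 2225, 1826 and 2026 CPM in the controls and 1377, 984 and 1747 CPM after IDPN. Every treated library was below every control, but the highest treated library was only slightly below the lowest control. The mean went from 2026 ± 199 to 1370 ± 381 CPM (SD, n = 3 each), or 67.6% of control, with a log2 fold change of -0.57 and an SE of 0.17 (edgeR Padj = 0.0366). The fold change fell just short of 1.5. Its Padj was under 0.05 in 1 of the 6 fits that each left out a library, and was 0.0915 with DESeq2. The Mbp gene also gives longer Golli transcripts in cells without myelin, and counts per gene do not separate them.

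Pmp22 encodes a membrane protein of compact peripheral myelin, whose gene dosage underlies common inherited neuropathies. Its levels were 1682, 1300 and 1525 CPM in Control and 1072, 775 and 1155 CPM in IDPN-4wk. The groups were again apart, and the mean in treated rats was 66.6% of the control mean (1502 ± 192 against 1001 ± 200 CPM, SD, n = 3 each). The log2 fold change of -0.59 (SE 0.14, edgeR Padj = 0.0148) was past the 1.5-fold limit, which is 0.585 on this scale, by a margin far smaller than its SE. Leaving out Control replicate 1, Control replicate 3 or IDPN-4wk replicate 2 gave -0.50, -0.58 and -0.43, none of which was called, although Padj stayed under 0.05 in all 6 such fits. With upper quartile scaling Pmp22 was at -0.55 and scaled by library size alone at -0.48, and it was called in neither.

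Periaxin (Prx) links the outer Schwann cell membrane to the basal lamina through the dystroglycan complex. It had 725, 619 and 659 CPM in the controls and 477, 375 and 516 CPM in the treated rats. The treated libraries were all below the controls, with the lowest again in replicate 2. The mean went from 668 ± 53.7 to 456 ± 72.7 CPM (SD, n = 3 each), with a log2 fold change of -0.55 and an SE of 0.11 (edgeR Padj = 0.00656), the smallest Padj of the 8. Padj was under 0.05 in all 6 fits without a library.

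Mag encodes an adhesion protein of the innermost wrap, which faces the axon. The controls were close together at 53.6, 54.0 and 57.8 CPM, and the treated libraries were lower and more spread at 37.2, 29.7 and 46.2 CPM. The mean was 55.1 ± 2.35 CPM (SD, n = 3) in Control and 37.7 ± 8.24 CPM (SD, n = 3) in IDPN-4wk, which is -0.55 in log2 (SE 0.14, edgeR Padj = 0.0179). Padj was under 0.05 in 4 of the 6 fits without a library. The fold changes of Mbp, Pmp22, Prx and Mag thus lay between -0.59 and -0.55, on both sides of the 1.5-fold limit, and their calls differ although their sizes do not differ beyond their SE.

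Mal and Cnp differed less. Mal encodes a proteolipid of membrane rafts that takes part in sorting myelin proteins. It had 355, 341 and 340 CPM in Control and 291, 222 and 282 CPM in IDPN-4wk, which is 76.8% of control, with a log2 fold change of -0.38 and an SE of 0.10 (edgeR Padj = 0.0207). Padj was under 0.05 in 3 of the 6 fits without a library. Cnp encodes an enzyme of the noncompacted cytoplasmic channels of myelin. Its levels were 654, 594 and 626 CPM in the controls and 589, 502 and 553 CPM in treated rats. These ranges did not overlap, but the lowest control and the highest treated library were 594 and 589 CPM, and the log2 fold change of -0.19 (SE 0.08) had a Padj of 0.123 in edgeR.

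The means of both transcription factors were above control, without passing the test. Egr2 had 73.2, 56.8 and 55.8 CPM in Control and 59.96, 81.0 and 78.3 CPM in IDPN-4wk. The groups overlapped, and the log2 fold change was 0.24 (SE 0.13, edgeR Padj = 0.241). Sox10 had 277, 310 and 288 CPM in the controls and 314, 330 and 355 CPM after IDPN. All treated libraries were above all controls, with 114% of the control mean and a log2 fold change of 0.19 and an SE of 0.08 (edgeR Padj = 0.113). Scaled by library size alone, Sox10 was 0.30 higher with a Padj of 0.0150 and the Padj of Mbp and of Mal were above 0.05.

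The size of the difference turned on which treated rat was read. IDPN-4wk replicate 2 was the lowest of all 6 libraries for Mbp, Pmp22, Mag, Prx, Cnp and Mal, and IDPN-4wk replicate 3 was the highest treated library for Mbp, Pmp22, Mag and Prx. Without replicate 2 the log2 fold change was -0.38 for Mbp, and without replicate 3 it was -0.79, with 4 of the 8 genes called lower where 1095 of 14544 genes tested were. After the group means were removed, the log2 CPM of Mbp, Pmp22 and Prx moved together over the 6 libraries, with Pearson r of 0.950 for Mbp and Pmp22, 0.977 for Mbp and Prx and 0.986 for Pmp22 and Prx. Over all pairs of the 6 sheath genes r was from 0.503 (Mag and Cnp) to 0.986. Egr2 had r from -0.373 to 0.041 with the sheath genes, and Sox10 from -0.534 with Cnp to 0.405 with Mag. These values describe 6 libraries that share 2 group means and their depth, and no test was made. The genes whose deviations were most like the mean of the 8 were Pacs2 (r = 0.999), Myo9a (0.999), RGD1359108 (0.998), Mapkbp1 (0.998) and Smg1 (0.996), and none of these 5 was called.

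Ratios between genes of the same library need no scaling between libraries, and Cnp was taken as the reference within the sheath after its values were seen. Relative to Cnp counts, Pmp22 was 0.41 lower on the log2 scale in IDPN-4wk, Prx was 0.37 lower and Mal was 0.20 lower, each with the groups apart. Mbp was 0.41 lower and Mag 0.38 lower, but their groups overlapped, because the ratios in IDPN-4wk replicate 3 reached the range of the controls. Sox10 was 0.38 higher with the groups apart, and Egr2 was 0.43 higher with overlap. Relative to Sox10, Mbp was 0.79 lower with the groups apart. These differences in ratio were not tested.

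**Figure D2:**
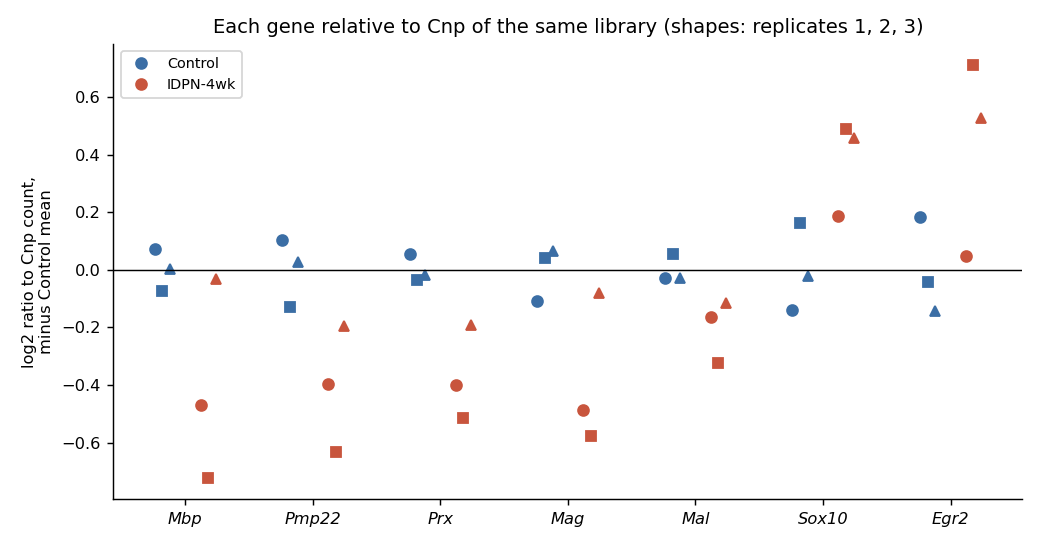
Log2 ratio of each gene's count to the Cnp count of the same library, minus the Control mean of that ratio (vertical axis, log2 units), for the other 7 Schwann cell myelin genes; points are libraries, with shapes for replicates 1 to 3. The IDPN-4wk points of Pmp22, Prx and Mal lie below all controls, those of Mbp and Mag overlap them in replicate 3, and the group means of Sox10 and Egr2 are 0.38 and 0.43 higher in IDPN-4wk.

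Among 16 further genes of the myelin sheath, 13 had a negative fold change. Of these 16, 3 were called lower (6.62% of all genes tested were) and none higher (3.09% were). Their median was -0.29 in log2, or -0.18 with library size alone. None was called by glmTreat, and which cells the RNA of these 16 genes came from was not measured. The called genes were Ndrg1, whose loss causes a demyelinating neuropathy, with 921 ± 109 CPM without and 526 ± 115 CPM with exposure (SD, n = 3 each), at -0.81 on the log2 scale (SE 0.14, edgeR Padj = 0.00304); the tetraspanin Tspan2 at -0.73 (edgeR Padj = 0.00189); and Ncmap, a protein of noncompact myelin, at -0.68 (edgeR Padj = 0.00412), which was not called with library size alone. In the other direction, Pmp2, the fatty acid binding protein of peripheral myelin, was at 0.38 in log2 (edgeR Padj = 0.0405) and Sh3tc2, an endosomal protein of Schwann cells, was at 0.27 (edgeR Padj = 0.0180), neither of them called. By Padj alone, 5 genes of this list were lower and 2 were higher, where 11.5% and 7.89% of all genes tested were.

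**Figure D3:**
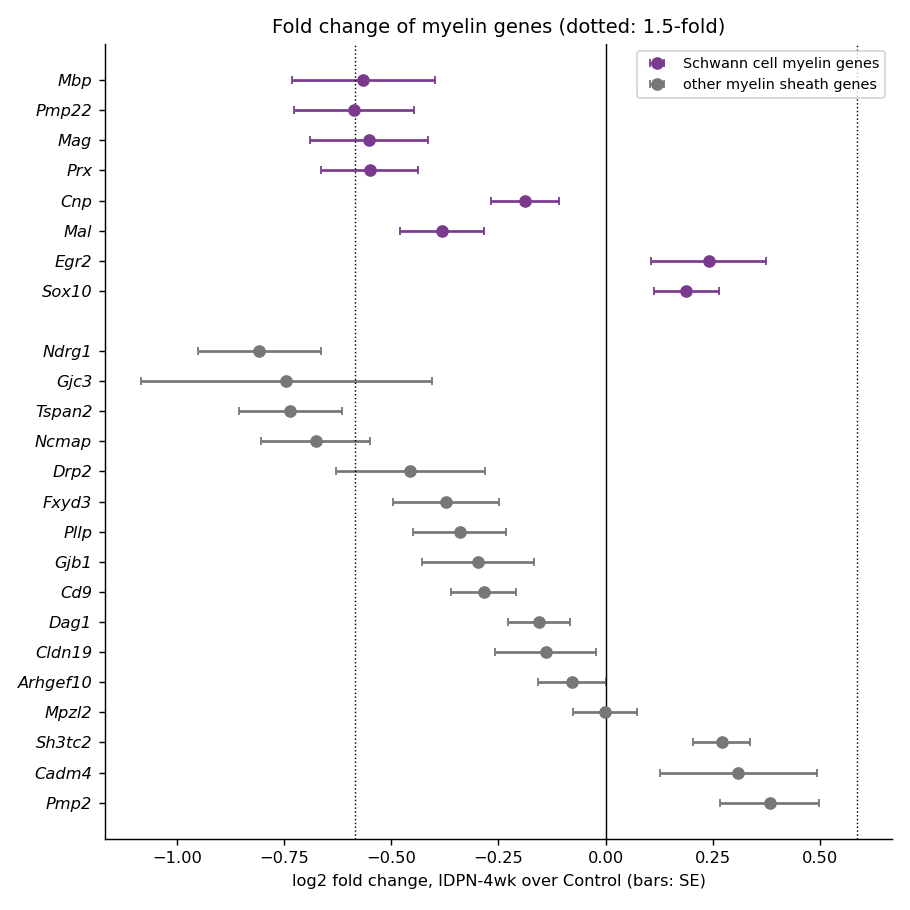
Log2 fold change of IDPN-4wk over Control (horizontal axis) with its SE (bars) for the 8 Schwann cell myelin genes and 16 other genes of the sheath; dotted lines mark 1.5-fold. Mbp, Pmp22, Mag and Prx sit at the lower limit, Ndrg1, Tspan2, Ncmap and the uncalled Gjc3 below it, and Sh3tc2, Cadm4 and Pmp2 on the positive side with Egr2 and Sox10.

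Of 8 enzymes that make myelin lipids, 1 was called, and it was lower (6.62% of all genes tested were called lower). Scd, the desaturase that makes monounsaturated fatty acids, fell from 213 ± 32.7 to 93.5 ± 10.1 CPM (SD, n = 3 each), at -1.19 in log2 (SE 0.12, edgeR Padj = 8.79e-05). Ugt8 and Fa2h, which make galactosylceramide and its hydroxylated form, were at -0.50 (edgeR Padj = 0.0586) and -0.49 (edgeR Padj = 0.106). The median of the 8 was -0.33. Without IDPN-4wk replicate 3, Ugt8 and Fa2h were called too, making 3. Scd is used in many cell types, and its RNA is not specific to glia.

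The 18 regulators of Schwann cells went both ways, with a median of -0.19. Of them, 3 were called lower (6.62% of all genes tested were) and none higher (3.09% were). The median was -0.09 without Control replicate 1 or without IDPN-4wk replicate 2. Scaled by library size alone it was -0.08. Adgrg6 (Gpr126), the adhesion receptor that starts the rise of Egr2 in development, had 264, 280 and 275 CPM in Control and 111, 158 and 154 CPM in IDPN-4wk. It fell by 0.95 on the log2 scale (SE 0.12, edgeR Padj = 0.000332). Dhh, the hedgehog ligand that Schwann cells send to the perineurium, had 61.1, 56.9 and 58.7 CPM in Control and 36.4, 30.3 and 33.6 CPM in IDPN-4wk, with a log2 fold change of -0.82 (edgeR Padj = 0.000201). In both genes the treated and control libraries were well apart. Lama2, the laminin chain of the Schwann cell basal lamina, was at -0.74 (edgeR Padj = 0.00438), and these 3 calls were kept in all 6 fits without a library, while glmTreat called 1 gene of the list. The neuregulin receptor genes Erbb2 and Erbb3 and the Egr2 partner Nab2 had positive fold changes of 0.34 (edgeR Padj = 0.0114), 0.32 (edgeR Padj = 0.0218) and 0.44 (edgeR Padj = 0.0112), none past 1.5-fold. Nfatc4, a calcineurin-regulated transcription factor gene, was at 0.58 (edgeR Padj = 0.0215) with the groups apart, just short of 1.5-fold, and was called higher with upper quartile scaling, library size alone, limma voom, and without Control replicate 3 or IDPN-4wk replicate 1. Erbb3 went from 229 ± 10.4 to 286 ± 28.2 CPM (SD, n = 3 each), with a Padj of up to 0.109 when a library was left out. Which cells the RNA of the 18 regulators came from was not measured.

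Genes of immature, non-myelinating or repair Schwann cells were listed too, of which 13 were tested. Of these, 4 were called lower (6.62% of all genes tested were) and none higher (3.09% were). Their median was -0.25, which became -0.12 without Control replicate 2 and -0.14 with library size alone. Cdh19, an adhesion gene of Schwann cell precursors and glia, fell from 38.9 ± 4.34 to 12.7 ± 3.25 CPM, Scn7a, a sodium channel gene of non-myelinating Schwann cells, from 86.2 ± 12.7 to 31.6 ± 3.92 CPM and Ncam1, an adhesion molecule shared with neurons, from 66.5 ± 5.46 to 28.1 ± 6.07 CPM (SD, n = 3 each). Their log2 fold changes were -1.62 (edgeR Padj = 0.000154), -1.45 (edgeR Padj = 4.73e-05) and -1.25 (edgeR Padj = 0.000215). Gap43, a growth-associated protein of axons and immature glia, had 7.30, 12.8 and 9.63 CPM in Control and 0.144, 0.309 and 0.901 CPM in IDPN-4wk (edgeR Padj = 0.000113). Jun at 0.22 (edgeR Padj = 0.260), Ngfr at 0.30 (edgeR Padj = 0.356) and Gfap at 0.39 (edgeR Padj = 0.348) were not called. They were among the 4 tested genes of the list with a positive fold change. The other 9 had a negative one, Gap43 and Ncam1 among them. Shh and Olig1, other genes of repair cells, had no count in any library, and S100b, which HCs and supporting cells also make, was at -0.41 (edgeR Padj = 0.0146).

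Genes of the junction between myelin and axon were also listed. Of 12 genes of the node of Ranvier, paranode and juxtaparanode, 7 were called lower and none higher, with a median of -0.71. Across all genes tested, 6.62% were called lower and 3.09% higher. The uncalled genes were Kcna1 at -0.50 (edgeR Padj = 0.0344), Sptbn4 at -0.31 (edgeR Padj = 0.708) and Epb41l3 at -0.18 (edgeR Padj = 0.206). Cntnap1 at -0.05 (edgeR Padj = 0.947) and Scn8a at 0.19 (edgeR Padj = 0.778) were not called either. Against a tested fold change of 1.5 (glmTreat) 2 of the 12 were called, and 4 of the 13 genes in the list of immature and repair cells. Gldn, the Schwann cell ligand that clusters nodal sodium channels, fell from 181 ± 19.7 to 99.0 ± 7.12 CPM (SD, n = 3 each), at -0.87 (edgeR Padj = 0.000133). Ank3, the nodal ankyrin, was at -0.77 (edgeR Padj = 8.06e-05), Cntn1, the axonal contactin of the paranode, at -0.88 (edgeR Padj = 0.000124), Nrcam at -0.78 (edgeR Padj = 0.00185) and the juxtaparanodal potassium channel Kcna2 at -0.85 (edgeR Padj = 0.00622). Nfasc (-0.65) and Cntn2 (-1.06) were called too, but in 3 and 1 of the 6 fits without a library, and neither with library size alone, which left 5 of the 12 called. Several of these are genes of neurons, HCs or epithelia as well, and which cells their RNA came from was not measured.

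**Figure D4:**
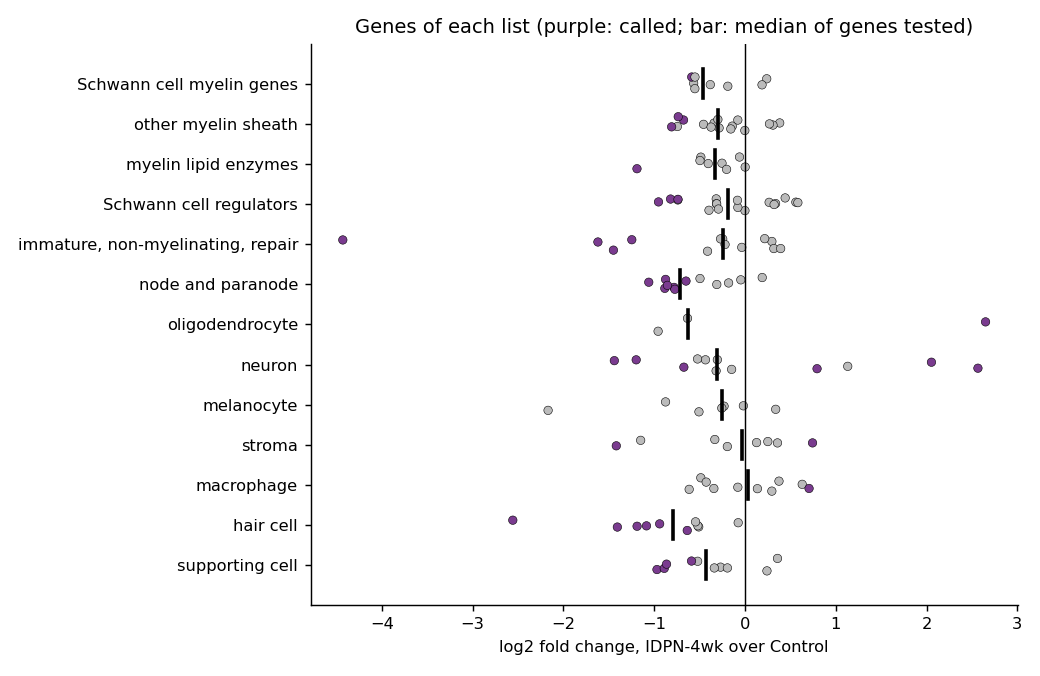
Log2 fold change of IDPN-4wk over Control (horizontal axis) for each tested gene of 13 lists; purple points are called genes and black bars are list medians. The Schwann cell myelin genes have a median of -0.47, against -0.71 for the node and paranode list, -0.79 for HC markers and -0.43 for supporting cell markers.

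Markers of other cells moved as well, where 6.62% of all genes tested were called lower and 3.09% higher. Of 10 HC markers, 6 were called lower (Myo7a, Otof, Atoh1, Slc17a8, Tmc1 and Cdh23), with summed levels at 57.2% of control. Atoh1 was called in 1 of the 6 fits without a library, and Myo7a was not called with library size alone or without Control replicate 2. In all, glmTreat called 3 HC markers, and 4 were called without Control replicate 2. Of 10 supporting cell markers 4 were called lower (Otog, Otogl, Gjb6 and Sparcl1), with the sum at 59.6% of control and a median of -0.43. Sparcl1 was not called with upper quartile scaling, with library size alone, without Control replicate 2 or without IDPN-4wk replicate 2, and glmTreat called 2 of the 10. Otog had 6262 of the 12656 CPM of that sum in Control, and Sox9 and Hes1 were on the positive side at 0.24 (edgeR Padj = 0.0540) and 0.36 (edgeR Padj = 0.0783). Of 12 neuron markers tested, Snap25, Rbfox3 and Isl1 were called lower and Prph, Nefh and Uchl1 higher, Nefh in 3 of the 6 fits without a library, and the sum was 74.1% of control. Prph and Nefh were near the floor, from 0.553 to 3.27 CPM and from 0.446 to 1.88 CPM in the group means. Isl1, which was not called with library size alone or without IDPN-4wk replicate 2, went from 98.2 to 61.7 CPM within a sum that went from 241 to 178 CPM, and glmTreat called 1 neuron marker lower and 1 higher. Of 7 melanocyte markers edgeR called none (84.9% of control), with 4 at an unadjusted p under 0.05, and 1, Oca2, was called lower with limma voom and without IDPN-4wk replicate 3. Such a p was common, since Cnp, with an unadjusted edgeR p of 0.0367, ranked 4287 by p among the 14352 genes tested. Stroma had Lum called lower and Col1a1 higher of 8 (94.2% of control), and macrophages had C1qb called higher of 10 (99.8% of control, with 94.0 to 191 CPM in the treated libraries). C1qb was not called without Control replicate 3 or without IDPN-4wk replicate 1, and in the latter fit Adgre1 and Mrc1 were called lower. Without Control replicate 2, Cd68 was called higher too. The median of the macrophage list, 0.03, became -0.32 when IDPN-4wk replicate 1 was left out and 0.33 when replicate 2 was. Postn of the stroma list was called lower with limma voom and without IDPN-4wk replicate 3, making 2. With glmTreat no stroma or macrophage marker was called. Among markers of oligodendrocytes, which also make Mbp, Mag, Cnp and Mal, Opalin and Olig2 had no count in any library and Mog was at most 0.849 CPM. Of the 3 that could be tested, Hapln2 was called higher, from 0.476 to 3.02 CPM, and the list sum was 67.1% of control, most of it Cldn11, with 154 CPM in Control replicate 1 and from 55.1 to 69.6 CPM in the other libraries. The part of these other cells in the levels of the myelin genes was not tested.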

How the data were processed

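RNA-seq of the vestibular epithelium was analysed in 3 Control and 3 IDPN-4wk rats, grouped by the treatment label. Libraries were prepared by an oligo-dT protocol (SMART-seq2) that keeps no strand. The authors mapped paired-end reads to Rnor6.0 with STAR 2.5.3a and estimated counts per gene with RSEM (version 1.3.0 in the submitters' processing notes). The deposited expected counts were whole numbers, so that rounding changed none. Low genes were removed by filterByExpr (count 10 and total 15 at the least), libraries were scaled with TMM, and genes were tested with glmQLFit and glmQLFTest of edgeR 4.0.16 in R 4.3.3, with SE from the quasi F statistic. The procedure was run on simulated data with planted log2 changes of at least 1, larger than those of the 8 genes. Calls near 1.5-fold were not covered. Counting errors are Poisson and cover counting only. Reads had no molecular identifiers, and RSEM divides reads between close paralogs. The labels give 1 batch and do not number the replicates, whose numbers here follow accession order. All 8 genes, the genes called in any list, 5 Schwann cell genes set by name (Pmp2, Erbb3, Ngfr, Gap43 and Jun) and the 5 genes nearest in deviation were named, as were others beside them chosen after their values were seen. The genes and lists were chosen with earlier results of these data known. Promoters came from the RefSeq table of GRCr8, which is not the build of the counts, and 7 of the 8 genes matched. Alternatives used DESeq2 1.42.0, limma 3.58.1 (voom), other scalings and filters, glmTreat and fits without each library. A few further genes are not reported here.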

Additional observations from a re-analysis of the deposited data

How the results depend on the processing

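No direction reversed for any of the 8 genes under the alternatives run. The count called lower, 1, became 0 with upper quartile scaling, with library size alone and with glmTreat against 1.5-fold, 3 with limma voom (Mbp, Pmp22 and Mag) and 5 with adjusted p alone. Of the 14352 genes tested, 979 were called lower with limma voom and 1646 with adjusted p alone. Leaving out 1 library gave from 0 to 4, beside 768 to 1095 of all genes, and none of the 8 was called higher in any of these fits. The median of the 8 was from -0.55 to -0.32 and the log2 change of their sum from -0.58 to -0.32 without 1 library, in both cases smallest without IDPN-4wk replicate 2 and largest without replicate 3. The count of all genes called, 1394, was 2778 with adjusted p alone, 453 with glmTreat and from 1085 to 1581 without 1 library. The share of calls that were lower was 68.1%, against 50.6% with library size alone, 59.3% with adjusted p alone and 78.1% with glmTreat. No paired analysis was possible because the labels give no replicate numbers. With 3 rats per group, differences as small as those of Cnp, Sox10 and Egr2 may be missed.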
